A study of Mus musculus with 12 samples.

Results

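Ischaemic kidneys of mice given an antibody against complement component C5 were compared with sham-operated kidneys, to find what difference in gene expression was left one day after reperfusion. The 6 kidneys compared were the 3 labelled as ischaemia-reperfusion injury with anti-C5 antibody (kidneys 10, 11 and 12) and the 3 labelled as sham (kidneys 1, 2 and 3), out of 12 kidneys in the series, and all 13124 genes of the deposited count table were tested. All kidneys came from male C57BL/6 mice, were perfused with saline, and were taken whole as bulk RNA 24 h after surgery. The anti-C5 mice received the antibody BB5.1 24 h before unilateral warm ischaemia. The sham mice had no ischaemia, and the labels name no antibody for them. The effects of ischaemia, of the antibody and of both can therefore not be told apart in this comparison. The other 2 groups, ischaemic kidneys from mice that received either an isotype control (kidneys 4, 5 and 6) or an antibody against the G-CSF receptor (kidneys 7, 8 and 9), also 24 h before ischaemia, serve here as reference levels. Neither the age of the mice nor the length of ischaemia was given in the sources used here. Libraries of the 6 compared kidneys held 13263355 to 15923198 counts, and levels below are CPM, read counts scaled to a common library size after normalisation.

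C5 is the complement protein whose cleavage releases C5a, a peptide that attracts and activates leukocytes through C5aR1, and C5b, which starts assembly of the membrane attack complex. Reperfusion after renal ischaemia is known to injure chiefly the proximal tubule, whose cells lose transport and metabolic genes and switch on injury markers such as Havcr1 (KIM-1) and Lcn2 (NGAL). BB5.1 binds mouse C5 and prevents its cleavage.

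Most genes of anti-C5 kidneys lay near the sham level, and the 3 kidneys were not alike: kidney 11 had high injury, neutrophil and cell cycle transcripts, while kidneys 10 and 12 had most injury genes close to sham. edgeR's quasi-likelihood test called no gene at a Benjamini-Hochberg adjusted p under 0.05 (0% of 13124 genes), and the smallest adjusted p was 0.327. At an unadjusted p under 0.05, 946 genes (7.21%) were higher and 541 (4.12%) were lower in the anti-C5 kidneys. By limma-voom, too, no gene was called, whereas DESeq2 called 25 genes (0.190%), 10 higher and 15 lower, which are described further on. For the group means, the 95% interval of the log2 difference had a median half-width of 0.34. For 11515 genes (87.74%) it lay wholly inside a 2-fold change in either direction. These intervals are not adjusted for the number of genes and take the spread as shared by the 4 groups. The median SD of log2 CPM was 0.21 over the anti-C5 kidneys and 0.11 over the sham kidneys, so they do not bound single anti-C5 kidneys. The median log2 difference of all genes was 0.01, a value largely set by the normalisation.

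The distance from sham differed between the 3 anti-C5 kidneys. In kidney 10, 76 genes lay more than 2-fold from the sham mean (27 above, 49 below), in kidney 12 it was 129 genes (72 above, 57 below), and in kidney 11 it was 857 genes (625 above, 232 below), or 6.53% of those tested. Each sham kidney set against the mean of the other 2 sham kidneys gave 69, 111 and 58 such genes, and the isotype kidneys gave 2933 to 3674. Kidney 10 was thus within the count of the sham kidneys, kidney 12 just above it, and kidney 11 between the sham and isotype counts. Of the 201 genes whose fitted log2 difference exceeded 1, kidney 11 held the highest of the 3 anti-C5 levels in 200, and in 54 all 3 anti-C5 kidneys lay above all 3 sham kidneys. Leaving out kidney 11, 24 genes exceeded a log2 difference of 1. Of the 26 genes with a log2 difference under -1, kidney 11 was lowest in 13, and 41 genes passed that limit without it. The median size of the log2 difference per gene was 0.12 in kidney 10, 0.23 in kidney 11 and 0.22 in kidney 12, so kidney 12 differed from sham by many small shifts rather than by large ones. The SD of log2 CPM over the 3 kidneys exceeded 1 for 251 genes among the anti-C5 kidneys, 23 among the sham kidneys and 120 among the isotype kidneys.

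**Figure D1:**
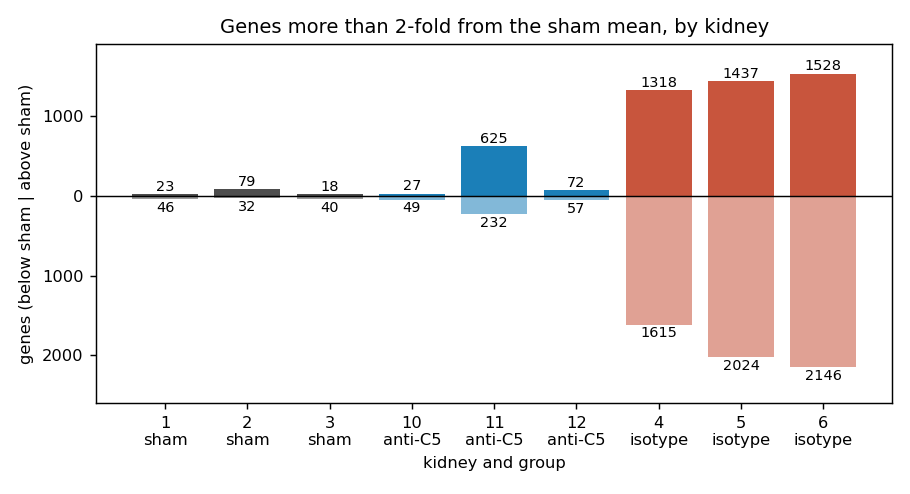
Number of genes more than 2-fold above (upper bars) or below (lower bars) the sham mean in each kidney; each sham kidney is set against the mean of the other 2. Kidney 11, with 625 genes above and 232 below, stands between the sham kidneys with kidneys 10 and 12 and the isotype kidneys.

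Tubule injury genes separated kidney 11 from its group. Havcr1 (chromosome 11, 46735080 to 46779578 on GRCm38), which encodes a phosphatidylserine receptor shed by injured proximal tubule, stood at 3.35, 14.3 and 3.08 CPM in sham kidneys 1, 2 and 3 and at 31.7, 1507 and 14.5 CPM in anti-C5 kidneys 10, 11 and 12. The groups did not overlap, but kidney 12 was only just above the highest sham kidney, while kidney 11 approached the isotype kidneys at 5672, 3089.8 and 3032 CPM. The log2 difference from sham was 6.22 (95% interval 2.16 to 10.29, adjusted p 0.371) and 1.74 without kidney 11. Against the isotype kidneys Havcr1 had a log2 difference of -2.92 and an adjusted p of 0.124, so this gene passed the test in neither direction.

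Krt20, a keratin of stressed epithelium, was 1.61, 0.779 and 0.754 CPM in sham and 1.27, 98.8 and 1.39 CPM in kidneys 10, 11 and 12, against 606.8 to 1332 CPM in the isotype group. Only kidney 11 lay outside the sham range of Krt20. Lcn2, which encodes an iron-siderophore binding protein, was also highest in kidney 11, with 13.7, 16.5 and 14.6 CPM in sham and 18.1, 280.9 and 12.99 CPM in anti-C5 kidneys 10, 11 and 12. Spp1, the matrix phosphoprotein osteopontin, was 1065, 1903 and 1089 CPM in sham and 1456, 10758 and 1244 CPM in anti-C5 kidneys. Its log2 difference of 1.73 (95% interval -0.18 to 3.64) became 0.00 without kidney 11, with an interval that spans no difference in both fits. Sprr2f, a cornified envelope protein gene, had no count in any sham kidney and was 0.07, 11.4 and 0 CPM in kidneys 10, 11 and 12.

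All 26 genes of the tubule injury list were measured and none was called. The median of the list's log2 differences was 0.14 in kidney 10, 2.43 in kidney 11 and -0.02 in kidney 12 against the sham mean, and 3.56 to 3.77 in the isotype kidneys. In anti-G-CSFR kidneys 7, 8 and 9 this median was -0.07, 0.07 and 1.26. A kidney that stood apart from its group in injury genes was thus not particular to the anti-C5 group. In the fit, 12 members had an unadjusted p under 0.05 and were higher (7.21% of all genes), and the list's median was 1.33, or 0.06 without kidney 11. In 6 members all 3 anti-C5 kidneys lay above all 3 sham kidneys, where 9.36% of all genes did so. These were Havcr1, Plaur, S100a6, Tnfrsf12a, Anxa2 and Anxa1. Plaur, the urokinase receptor, was 4.09, 3.37 and 2.67 CPM in sham and 4.73, 38.6 and 5.57 CPM in kidneys 10, 11 and 12. S100a6, a calcium-binding protein gene, was 16.7 to 21.0 CPM in sham and 24.0, 203.2 and 32.9 CPM in the anti-C5 kidneys. Against the isotype group, 21 of the 26 were called lower by edgeR, where 29.8% of all genes were.

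**Figure D2:**
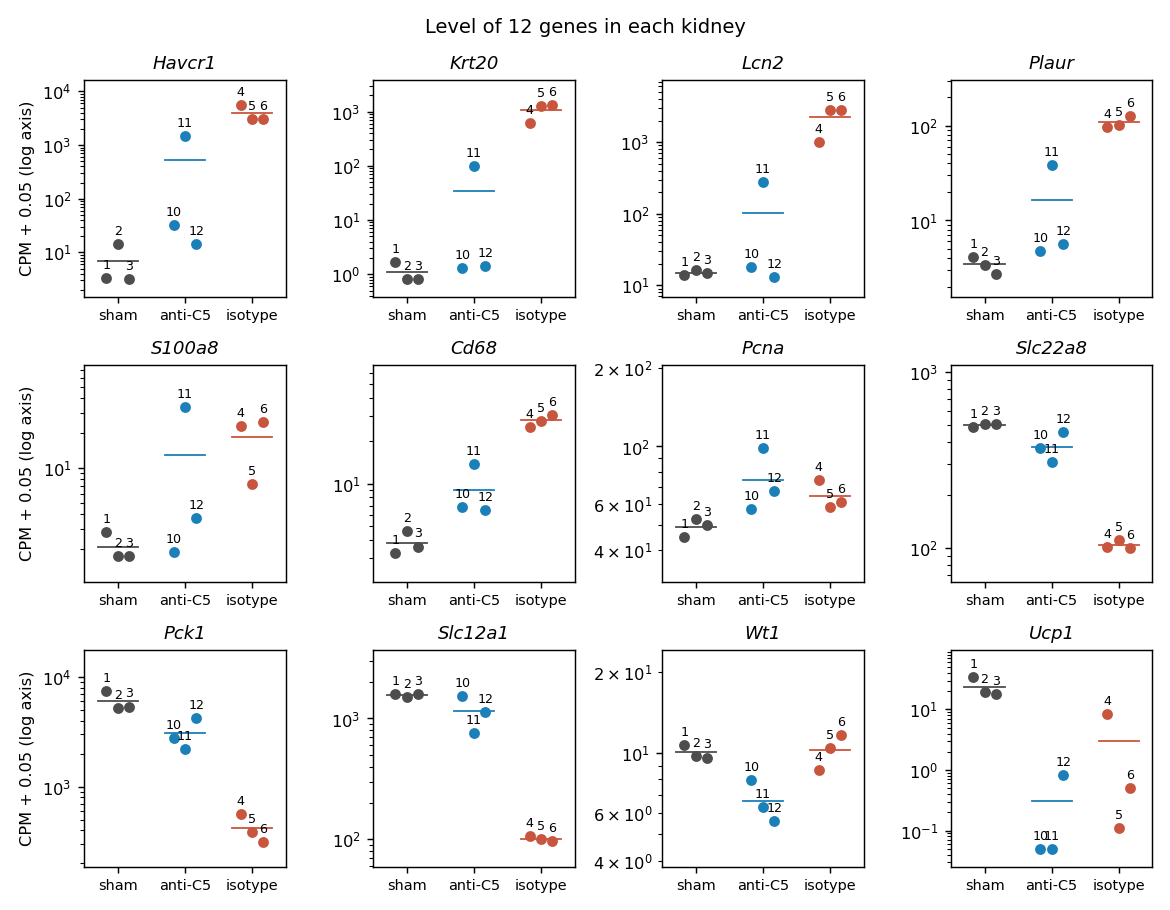
Level of 12 genes in each kidney (CPM plus 0.05 on a log axis; numbers are kidneys, horizontal lines are group means). Kidney 11 stands apart from kidneys 10 and 12 for Havcr1, Krt20, Lcn2, Plaur and S100a8, all 3 anti-C5 kidneys lie below the sham kidneys for Slc22a8, Pck1, Wt1 and Ucp1, and all 3 lie above them for Cd68 and Pcna.

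The 10 genes with the widest spread over the anti-C5 kidneys were Havcr1, Krt20, Fosl1, Il1rn, Sprr2f, Flnc, Timp1, Sprr2g, Lif and Gsta1. They were ranked among genes with a mean log2 CPM of at least 1 over all 12 kidneys. A gene that is scarce in sham can pass that floor through the isotype kidneys, which favours injury genes. In each of the 10, kidney 11 was the highest of the 3 anti-C5 kidneys. Flnc, the actin crosslinker filamin C, was 0.494, 39.6 and 0.387 CPM in kidneys 10, 11 and 12 and 0.324 to 0.754 CPM in sham. Timp1, an inhibitor of matrix metalloproteinases, was 0.987, 43.4 and 1.16 CPM in the anti-C5 kidneys and 0.402, 1.69 and 0.206 CPM in sham. The level of Timp1 in kidney 11 fell within the isotype range of 42.1 to 103.4 CPM. Gsta1, a glutathione transferase gene, was 3.95, 101.3 and 3.17 CPM against 2.06 to 3.28 CPM in sham. Fosl1, an AP-1 subunit, was 0 in each sham kidney and 0.141, 11.3 and 0 CPM in kidneys 10, 11 and 12.

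Genes of the nephron itself lay slightly below sham, with kidney 11 lowest. All 34 listed proximal tubule genes were measured, which checks the tissue label, and none was called against sham. Their median log2 difference was -0.22 (-0.07 without kidney 11). By kidney it was -0.03, -0.49 and -0.12 in kidneys 10, 11 and 12, against -2.09 to -2.49 in the isotype kidneys. In 12 of the 34 all 3 anti-C5 kidneys lay below all 3 sham kidneys, where 8.59% of all genes did so. Bulk RNA does not distinguish fewer tubule cells from less RNA per cell.

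Pck1, the gluconeogenic enzyme phosphoenolpyruvate carboxykinase, was 7551, 5271 and 5395 CPM in sham and 2786, 2227 and 4271 CPM in kidneys 10, 11 and 12. The groups did not overlap, and kidneys 10 and 11 were near one another. Its log2 difference was -0.97 (95% interval -1.62 to -0.33, adjusted p 0.371) and -0.78 without kidney 11, so the low level of Pck1 did not rest on that kidney. The organic anion transporter gene Slc22a8 was 487.2, 507.7 and 505.4 CPM in sham and 368.0, 306.2 and 457.4 CPM in kidneys 10, 11 and 12 (log2 difference -0.41, -0.28 without kidney 11). The basolateral sodium bicarbonate cotransporter gene Slc4a4 was 1348, 1157 and 1223 CPM in sham and 1103, 859.9 and 851.4 CPM in the anti-C5 kidneys. The water channel gene Aqp1 did not separate the groups, at 1086 to 1416 CPM in sham and 1285, 684.8 and 1378 CPM in kidneys 10, 11 and 12. Against the isotype group, 32 of the 34 proximal tubule genes were called higher, where 30.5% of all genes were.

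Slc12a1, the sodium-potassium-chloride cotransporter of the thick ascending limb, was 1602, 1518 and 1587 CPM in sham and 1543, 753.3 and 1138 CPM in kidneys 10, 11 and 12. Kidney 10 was inside the sham range and kidney 11 was lowest. Egf, a growth factor precursor made in the distal nephron, followed the same order, at 1576 to 1817 CPM in sham and 1546, 535.7 and 1031 CPM in the anti-C5 kidneys. It was the sole member of the 17 loop and distal tubule genes whose groups did not overlap (1 of 17 below sham, against 8.59% of all genes). The median of these 17 was -0.19, and 14 of them were called higher than in the isotype group (30.5% of all genes). Kidney 11 was lowest of the 3 in 16 of the 17. Of 16 collecting duct genes, 1 lay below sham in all 3 kidneys (8.59% of all genes) and 1 lay above it (9.36%). Scnn1b, a subunit of the epithelial sodium channel, was the lower (46.1, 39.1 and 38.8 CPM against 48.0 to 54.2 CPM). Atp6v1g3, a proton pump subunit of intercalated cells, was the higher (51.6, 54.0 and 68.7 CPM against 35.2 to 50.4 CPM). Neither passed the adjusted test.

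Podocyte genes were lower in the anti-C5 kidneys by a small amount that did not rest on kidney 11. The 11 measured podocyte genes had a median log2 difference of -0.36, and -0.35 without kidney 11, with kidney medians of -0.11, -0.34 and -0.54 in kidneys 10, 11 and 12. None was called, 5 had an unadjusted p under 0.05 and were lower (4.12% of all genes), and in 4 all 3 anti-C5 kidneys lay below sham (8.59% of all genes). Wt1, a transcription factor that maintains podocytes, was 10.7, 9.73 and 9.59 CPM in sham and 7.90, 6.29 and 5.57 CPM in kidneys 10, 11 and 12 (log2 difference -0.60, 95% interval -0.99 to -0.22, adjusted p 0.371). The slit diaphragm gene Nphs1 (nephrin) was 26.1, 31.9 and 27.5 CPM in sham and 25.4, 19.2 and 16.6 CPM in the anti-C5 kidneys. Podxl, the surface sialomucin podocalyxin, was 293.1, 299.7 and 308.9 CPM in sham and 259.6, 237.3 and 206.3 CPM in kidneys 10, 11 and 12. Kidney 12 was lowest for Wt1, Nphs1 and Podxl. The median of the podocyte list against sham was 0.02 in the isotype group and -0.23 in the anti-G-CSFR group, where kidneys 7, 8 and 9 were at -0.42, -0.42 and 0.01. In the anti-C5 kidneys 5 of the 11 genes were called lower than in the isotype kidneys (29.8% of all genes), Wt1 among them (log2 difference -0.63, adjusted p 0.00923).

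Metabolic and hormone genes of the tubule gave the same picture of small differences. Of 24 fatty acid oxidation genes none was called, 8 lay below sham in all 3 kidneys (8.59% of all genes), and the median was -0.33 (-0.18 without kidney 11). Cpt2, the inner membrane carnitine palmitoyltransferase, was 319.8, 290.3 and 263.1 CPM in sham and 244.3, 190.4 and 235.3 CPM in kidneys 10, 11 and 12. Hadha, a subunit of the mitochondrial trifunctional protein, was 402.6, 385.8 and 326.2 CPM in sham and 315.8, 244.5 and 270.7 CPM in the anti-C5 kidneys. Of 11 renin-angiotensin and hormone genes, with a median of -0.34 (-0.22 without kidney 11), none was called and 6 lay below sham in all 3 kidneys (8.59% of all genes): Enpep, Cyp4a14, Agt, Mme, Cyp4a10 and Nr3c2. Enpep, the aminopeptidase that cleaves angiotensin II, was 222.6, 224.9 and 211.7 CPM in sham and 181.6, 162.9 and 165.4 CPM in kidneys 10, 11 and 12, and its 3 anti-C5 values were close together. Cyp4a14, a fatty acid hydroxylase gene, was 1861, 1949.7 and 1027 CPM in sham and 929.5, 531.1 and 895.7 CPM in the anti-C5 kidneys.

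The 23 nuclear-encoded respiratory chain genes split the anti-C5 kidneys, with medians of 0.11, -0.24 and 0.43 in kidneys 10, 11 and 12. Kidney 11 was the lowest of the 3 for all 23 of them, and kidney 12 was above sham. Sdha, the flavoprotein subunit of succinate dehydrogenase, was the 1 of 23 below sham in all 3 kidneys, where 8.59% of all genes were. Its levels were 990.8, 719.0 and 853.3 CPM against 1022 to 1073 CPM in sham. All 23 were called higher than in the isotype group (30.5% of all genes). Of 24 glycolysis and hypoxia genes, 3 lay below sham in all 3 kidneys (8.59% of all genes): Eno1, Ndrg1 and Gapdh. Eno1 (enolase) was 1088, 1125 and 856.5 CPM in sham and 846.5, 707.1 and 744.8 CPM in kidneys 10, 11 and 12. The 20 cholesterol synthesis genes had a median of 0.15 (0.15 without kidney 11), with 15 above 0 and none called. In all 3 kidneys Mvk and Sqle lay above sham (2 of 20, against 9.36% of all genes). Cyp51 (lanosterol demethylase) lay below it (1 of 20, against 8.59%), opposite to the list's median. Its levels were 230.0, 135.5 and 266.6 CPM against 315.5 to 385.7 CPM in sham. Casr, the calcium-sensing receptor, was the 1 of 14 vitamin D and mineral genes below sham in all 3 kidneys (8.59% of all genes), and none lay above it. Its levels were 116.8, 74.6 and 94.4 CPM against 118.9 to 124.4 CPM in sham. The 24 glucocorticoid and circadian genes had a median of 0.25 (0.15 without kidney 11), with 15 above 0 and none called. In all 3 kidneys Per1 lay above sham (1 of 24, against 9.36% of all genes), while Clock and Nr1d1 lay below it (2 of 24, against 8.59%). The core circadian activator gene Clock was 97.1, 92.3 and 85.8 CPM against 101.8 to 137.1 CPM in sham.

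**Figure D3:**
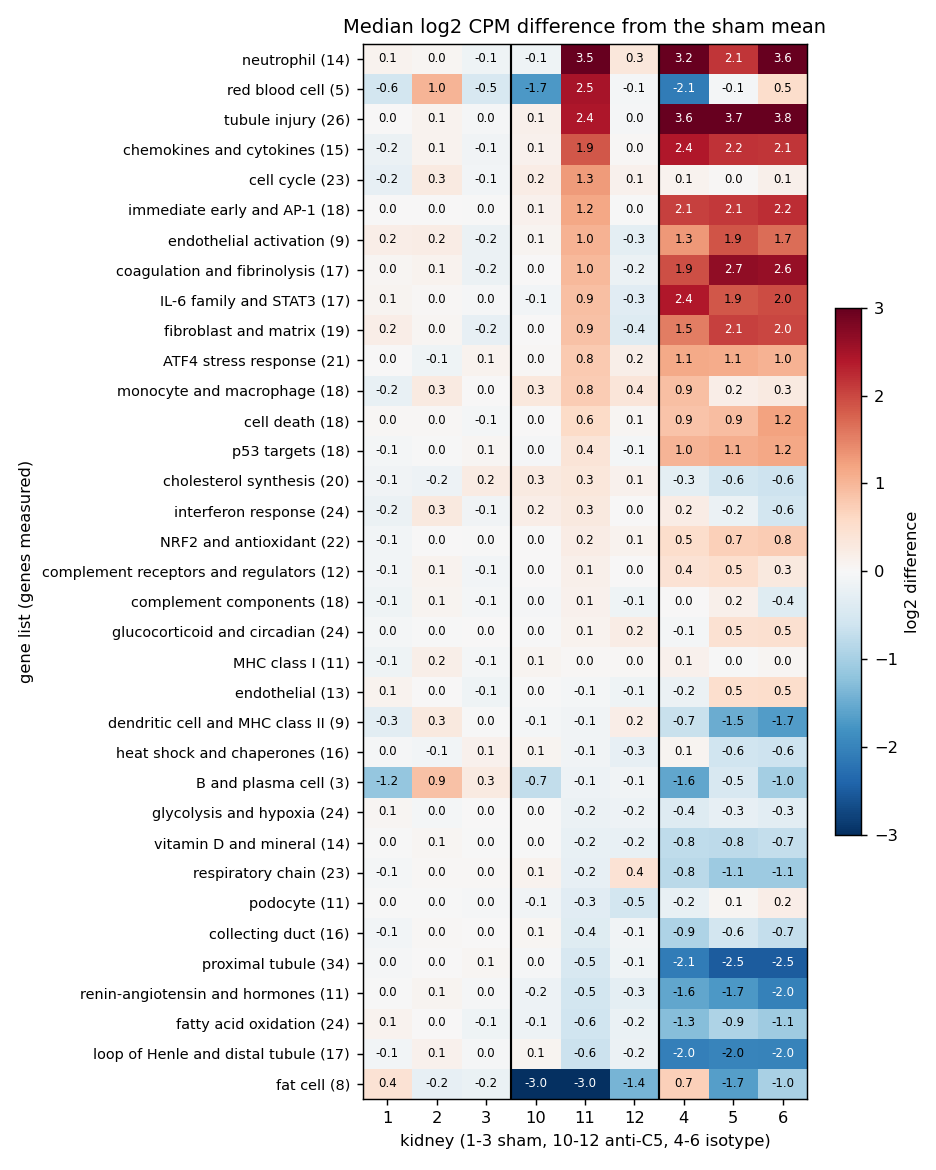
Median difference from the sham mean, in log2 CPM, of each gene list with at least 3 measured genes (rows, number of genes in brackets) in each sham, anti-C5 and isotype kidney (columns). Kidney 11 is red for injury, neutrophil, chemokine and cell cycle lists, at 2.43 for tubule injury, where kidneys 10 and 12 are at 0.14 and -0.02.

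Neutrophil transcripts stood high in kidney 11, near sham in kidney 10 and, for some genes, above the sham range in kidney 12. Medians of the neutrophil list against the sham mean were -0.13, 3.45 and 0.33 in kidneys 10, 11 and 12. In anti-G-CSFR kidneys 7, 8 and 9 they were -0.54, -0.60 and -0.54. Of 22 listed neutrophil genes, 14 were measured, and a gene that is scarce in sham can have entered the table through the isotype kidneys. None of the 14 was called, in none did the groups separate, and 8 had an unadjusted p under 0.05 and were higher (7.21% of all genes). The list's median log2 difference was 2.29, and 0.09 without kidney 11. S100a8, a subunit of the neutrophil protein calprotectin, was 2.75, 1.69 and 1.71 CPM in sham and 1.83, 33.6 and 3.63 CPM in kidneys 10, 11 and 12. Kidney 11 was above each isotype kidney (23.2, 7.19 and 24.8 CPM), and kidney 10 was inside the sham range. Csf3r, the G-CSF receptor, was 1.07, 1.82 and 1.58 CPM in sham and 1.13, 16.2 and 1.39 CPM in the anti-C5 kidneys. Cxcr2, a chemokine receptor of neutrophils, was 0.343 to 0.519 CPM in sham and 0.353, 8.46 and 1.08 CPM in kidneys 10, 11 and 12. The chemokine gene Cxcl1, which encodes a ligand of Cxcr2, was 0.402, 0.844 and 0.548 CPM in sham and 1.27, 22.4 and 1.70 CPM in the anti-C5 kidneys, with groups that did not overlap (log2 difference 3.798, 95% interval 1.36 to 6.24, adjusted p 0.371). The difference for Cxcl1 without kidney 11 was 1.29.

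Red blood cell genes moved with kidney 11 as well. Hbb-bs, a beta-globin gene, was 115.6 CPM there, against 5.29 and 23.2 CPM in kidneys 10 and 12 and 11.9 to 36.5 CPM in sham. The summed level of the 5 measured red blood cell genes was 228.0 CPM in kidney 11, 80.5 and 86.7 CPM in kidneys 10 and 12 and 89.1 to 142.2 CPM in sham. Kidney 11 was the highest of the 3 anti-C5 kidneys in 4 of the 5 and the lowest in 1. Slc4a1, a member of this list, is also on the collecting duct list. The part of retained blood in the neutrophil values of kidney 11 was not tested.

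A few macrophage transcripts were higher than sham in each anti-C5 kidney, by smaller amounts, while the list as a whole was highest in kidney 11. In 4 of 18 measured monocyte and macrophage genes all 3 anti-C5 kidneys lay above all 3 sham kidneys (9.36% of all genes), none was called, and the median log2 difference was 0.46 (0.18 without kidney 11). Kidney medians were 0.31, 0.76 and 0.37 in kidneys 10, 11 and 12. They were -0.23, 0.27 and 0.01 in sham kidneys 1, 2 and 3, and -0.10, 0.27 and 0.31 in anti-G-CSFR kidneys 7, 8 and 9. The list's summed level was 233.2, 330.2 and 240.4 CPM in kidneys 10, 11 and 12 and 161.3 to 235.3 CPM in sham. The genes given below are those that separated. Cd68, a lysosomal glycoprotein of macrophages, was 3.22, 4.61 and 3.56 CPM in sham and 6.77, 13.7 and 6.49 CPM in kidneys 10, 11 and 12 (log2 difference 1.24, 95% interval 0.62 to 1.86, and 0.80 without kidney 11). Lyz2, lysozyme, was 19.6, 26.7 and 23.2 CPM in sham and 32.9, 69.9 and 37.1 CPM in the anti-C5 kidneys. C1qc, a chain of C1q that macrophages make, was 10.1, 14.5 and 12.5 CPM in sham and 15.6, 19.5 and 17.9 CPM in the anti-C5 kidneys, a tight range. Aif1 was the fourth. Dendritic cell and MHC class II genes (9 measured) had a median of -0.03, interferon response genes (24 measured) 0.19 and MHC class I genes (11 measured) 0.03, and in none of these lists did any gene separate the groups. The isotype median for the class II list was -1.19 against sham, and 7 of its 9 genes were called higher in the anti-C5 kidneys than in the isotype kidneys (30.5% of all genes). The 16 listed T and NK cell genes had no entry among the genes tested and were not analysed here.

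The complement system, the target of the antibody, showed few differences in transcripts. Hc, the mouse C5 gene, and C5ar2 were not analysed here because the table of genes held no entry for them. C5ar1, the C5a receptor, was 1.21, 1.17 and 2.19 CPM in sham and 1.90, 8.10 and 1.55 CPM in kidneys 10, 11 and 12, so that kidney 11 alone left the sham range and reached the isotype range of 7.74 to 10.6 CPM. C3ar1, the C3a receptor, was 1.94 to 3.37 CPM in sham and 2.12, 2.97 and 2.63 CPM in the anti-C5 kidneys, and Cd59a, an inhibitor of that complex on cell surfaces, was 58.8 to 65.7 CPM in sham and 69.6, 52.9 and 84.7 CPM in the anti-C5 kidneys, with overlap in both. None of 12 complement receptor and regulator genes separated the groups. Among 18 component genes, C1qc and Mbl1 lay above sham, and C3, C8a and Cfd lay below it, in all 3 kidneys. These shares, 2 of 18 above and 3 of 18 below, stand beside 9.36% and 8.59% of all genes, and none of the 18 was called. C3, the central component, was 159.0, 186.7 and 112.5 CPM in sham and 70.0, 95.1 and 53.1 CPM in kidneys 10, 11 and 12 (log2 difference -1.07, 95% interval -2.39 to 0.25, adjusted p 0.516). C8a, a membrane attack complex subunit, was 28.1 to 34.5 CPM in sham and 26.0, 8.90 and 24.0 CPM in the anti-C5 kidneys.

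Fat cell markers, a list that also holds Cfd, were lower in the anti-C5 kidneys. Ucp1, the uncoupling protein of brown fat (chromosome 8, 83290352 to 83298452), was 34.5, 19.2 and 17.9 CPM in sham and 0, 0 and 0.773 CPM in kidneys 10, 11 and 12. Plin1, a lipid droplet protein gene, was 2.88, 1.75 and 2.33 CPM in sham and 0.071, 0 and 0.155 CPM in the anti-C5 kidneys. Of the 8 measured fat cell genes none was called, 6 lay below sham in all 3 kidneys (8.59% of all genes), and the median log2 difference was -2.54, or -2.27 without kidney 11. Their summed level was 1038.8, 598.6 and 744.1 CPM in the anti-C5 kidneys and 936.5 to 1303 CPM in sham. The part of attached fat in the level of Cfd or in other differences was not tested. Kidney 7 of the anti-G-CSFR group had Ucp1 and Plin1 at 0 too, and kidney 5 of the isotype group had Ucp1 at 0.061 CPM.

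Cell cycle genes were highest in kidney 11. None of 23 measured genes was called, 8 had an unadjusted p under 0.05 and were higher (7.21% of all genes), and the median log2 difference was 0.60, or 0.08 without kidney 11. In 2 of the 23, Pcna and Gmnn, all 3 anti-C5 kidneys lay above all 3 sham kidneys (9.36% of all genes). The kidney medians were 0.22, 1.28 and 0.12 in kidneys 10, 11 and 12 and 0.03 to 0.14 in the isotype kidneys, so kidney 11 exceeded both groups in this list, unlike the injury list. Pcna, the sliding clamp of DNA replication, was 44.8 to 52.4 CPM in sham and 57.4, 98.9 and 67.4 CPM in kidneys 10, 11 and 12 (log2 difference 0.60, and 0.35 without kidney 11). Mcm5, a replicative helicase subunit, was 15.5 to 20.7 CPM in sham and 19.9, 61.8 and 20.8 CPM in the anti-C5 kidneys. Gmnn, geminin, which blocks relicensing of origins, was 15.0 to 16.1 CPM in sham and 17.1, 28.6 and 23.4 CPM in the anti-C5 kidneys. It was called higher than in the isotype group (log2 difference 1.29, adjusted p 0.000146 by edgeR). So were 6 of the 23 genes in total, and 30.5% of all genes.

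Among stress response genes, some lay above sham in all 3 anti-C5 kidneys and kidney 11 was often the highest. Of 21 ATF4 stress response genes, none was called, 5 lay above sham in all 3 kidneys (9.36% of all genes), and the median was 0.35 (0.19 without kidney 11). Ddit4, an inhibitor of mTORC1, was 17.9, 11.6 and 16.9 CPM in sham and 23.4, 27.1 and 20.6 CPM in kidneys 10, 11 and 12 (log2 difference 0.61, 95% interval 0.21 to 1.02, and 0.51 without kidney 11). Asns, asparagine synthetase, was 4.22 to 7.40 CPM in sham and 7.27, 17.4 and 8.12 CPM in the anti-C5 kidneys, with kidney 10 inside the sham range. Of 22 NRF2 and antioxidant genes, again with none called, Mt1, Fth1, Slc7a11, Prdx1 and Gpx4 lay above sham (5 of 22, against 9.36% of all genes) and Cat lay below it (1 of 22, against 8.59%) in all 3 kidneys. Mt1, metallothionein, was 43.1, 63.9 and 54.5 CPM in sham and 85.6, 182.4 and 67.0 CPM in the anti-C5 kidneys, far from the isotype range of 553.8 to 1166 CPM. Fth1, ferritin heavy chain, was 5285, 6086 and 5913 CPM in sham and 6409, 7867 and 8482 CPM in kidneys 10, 11 and 12. Cat, catalase, was 1552 to 1731 CPM in sham and 1343, 1032 and 1393 CPM in the anti-C5 kidneys. Bax, which permeabilises the outer mitochondrial membrane, was the single separated gene of the 18 p53 targets (1 of 18 above sham, against 9.36% of all genes). It was 24.0 to 26.9 CPM in sham and 30.8, 43.2 and 30.7 CPM in the anti-C5 kidneys.

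Most of the remaining lists followed kidney 11. Exceptions were the heat shock, endothelial identity and B and plasma cell lists, whose medians were below 0 with or without that kidney. In the anti-G-CSFR group, kidney 9 stood apart in several of the lists that followed kidney 11. Medians in kidneys 7, 8 and 9 were -0.01, -0.10 and 0.81 for immediate early and AP-1 genes. For chemokine and cytokine genes they were 0.06, 0.09 and 1.02. The 18 immediate early and AP-1 genes had a median log2 difference of 0.51 (0.01 without kidney 11), and each of the 18 was called lower than in the isotype group (29.8% of all genes). Ier3, an early response gene, was an exception to the pattern, at 33.0, 44.1 and 49.2 CPM in kidneys 10, 11 and 12 against 23.9 to 35.5 CPM in sham, with kidney 12 highest. The 17 IL-6 family and STAT3 genes had a median of 0.19 (-0.22 without kidney 11), the 15 chemokine and cytokine genes 0.92 (0.06), the 17 coagulation genes 0.36 (-0.08) and the 19 fibroblast and matrix genes 0.25 (-0.21). Of the fibroblast and matrix genes, 2 of 19 lay above sham in all 3 kidneys (9.36% of all genes). Tagln, an actin-binding protein of smooth muscle and activated fibroblasts, was among them, at 32.3, 95.2 and 34.6 CPM against 22.6 to 26.9 CPM. Il34, a ligand of the macrophage colony-stimulating factor receptor, was 24.3, 53.3 and 25.4 CPM against 15.6 to 23.1 CPM. With Cxcl1 it made up the 2 of 15 chemokine and cytokine genes above sham in all 3 kidneys (9.36% of all genes). Endothelial identity genes (13 measured) had a median of -0.12. Kdr was their 1 separated gene, lower in the anti-C5 kidneys (1 of 13, against 8.59% of all genes). Median log2 differences of the other lists were 0.34 for 9 endothelial activation genes (-0.12 without kidney 11), 0.27 for 18 cell death genes (0.04), 0.21 for the p53 targets (-0.01), -0.08 for 16 heat shock and chaperone genes (-0.08) and -0.56 for 3 B and plasma cell genes (-0.68). The single measured gene of the skeletal muscle list, Pvalb, which the distal tubule also expresses, was 10.9 to 26.6 CPM in sham and 27.1, 10.4 and 23.6 CPM in kidneys 10, 11 and 12.

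DESeq2 called 25 genes, most of them with small differences: 21 of the 25 differed by less than 2-fold. The calls depended on single kidneys. Without kidney 11 DESeq2 called 10 genes, 6 of them among the 25, and over the 6 fits that each left out one compared kidney it called between 1 (without kidney 2) and 547 (without kidney 10). In each of the 25 the anti-C5 and sham kidneys did not overlap, which the selection on these same values favours. Their adjusted p in edgeR's test lay between 0.327 and 0.371, so these genes rest on the choice of test. They were singled out after their values were seen. Their values are given as a description of these kidneys. The anti-G-CSFR mean lay on the same side of sham as the anti-C5 mean in all 25, and the isotype mean did so in 23. All these comparisons share the sham kidneys, and the 25 genes were selected on their distance from them. Extreme sham values alone would put every group on the same side. The agreement therefore cannot show whether the direction is particular to the anti-C5 group.

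Among the 10 higher genes, Capg (chromosome 6, 72544391 to 72562983), an actin filament capping protein of macrophages and other cells, was 25.0, 22.1 and 17.8 CPM in sham and 43.5, 66.0 and 42.8 CPM in kidneys 10, 11 and 12. Its log2 difference was 1.23 (95% interval 0.76 to 1.70), with an adjusted p of 0.327 by edgeR and 0.000316 by DESeq2, and its adjusted p ranged from 0.000316 to 1 over the alternatives. Fhl3, a LIM domain protein gene, was 2.35, 1.95 and 2.88 CPM in sham and 4.87, 5.71 and 4.33 CPM in the anti-C5 kidneys. Snrnp25, a protein of the minor spliceosome, was 3.89, 5.58 and 4.86 CPM in sham and 9.24, 7.67 and 10.1 CPM in the anti-C5 kidneys, with kidney 11 the lowest of the 3. It was also higher than in the isotype kidneys (log2 difference 0.93, adjusted p 0.00184 by edgeR), whose levels of 4.27 to 5.56 CPM were near those of sham. The same anti-C5 values had selected this gene, which favours such a call, and 30.5% of all genes were called higher than isotype. Gstm5, a glutathione transferase gene, was 145.1 to 152.1 CPM in sham and 198.4, 279.6 and 233.3 CPM in the anti-C5 kidneys, and Gadd45g, a growth arrest and DNA damage response gene, was 12.5 to 16.03 CPM in sham and 25.5, 31.0 and 23.9 CPM in the anti-C5 kidneys. The other higher genes were Cd68, Cstb, Nt5c, 2200002D01Rik and 1110038B12Rik.

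Among the 15 lower genes, Gldc (chromosome 19, 30098447 to 30175429), the glycine decarboxylase of the mitochondrial glycine cleavage system, was 283.2, 323.2 and 298.9 CPM in sham and 191.0, 162.6 and 196.0 CPM in kidneys 10, 11 and 12. Its log2 difference was -0.72 (95% interval -0.9997 to -0.44) and -0.64 without kidney 11. Esr1, estrogen receptor alpha, was 26.3, 21.2 and 24.0 CPM in sham and 16.2, 10.7 and 16.2 CPM in the anti-C5 kidneys. Esrrg, an orphan nuclear receptor that controls mitochondrial metabolism, was 128.9, 120.4 and 111.7 CPM in sham and 94.4, 78.4 and 84.4 CPM in the anti-C5 kidneys. Pcx, pyruvate carboxylase, was 1064, 901.4 and 881.6 CPM in sham and 745.2, 466.8 and 596.5 CPM in kidneys 10, 11 and 12. Kcnj16, a potassium channel subunit of the basolateral tubule membrane, was 935.7 to 1049 CPM in sham and 711.8, 598.8 and 783.6 CPM in the anti-C5 kidneys.

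Not all of these lower genes were further lowered in the isotype kidneys. Plod2, a collagen lysyl hydroxylase, was 64.8 to 70.1 CPM in sham, 52.6, 45.6 and 42.3 CPM in kidneys 10, 11 and 12, and 62.2 to 72.2 CPM in the isotype kidneys, and it was called lower in the anti-C5 than in the isotype group (log2 difference -0.53, adjusted p 0.00111 by edgeR). Utp20, a ribosomal RNA processing factor, was 92.5, 91.4 and 74.5 CPM in sham and 54.1, 54.1 and 62.2 CPM in the anti-C5 kidneys. It was also called lower than in the isotype group (log2 difference -0.29, adjusted p 0.033 by edgeR). The same anti-C5 values had selected Plod2 and Utp20, which favours such calls, and 29.8% of all genes were called lower than isotype. The other lower genes were Pigr, Apmap, Ppm1l, Tmco4, Cd164, Tm9sf2, Abca3 and Igfals.

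**Figure D4:**
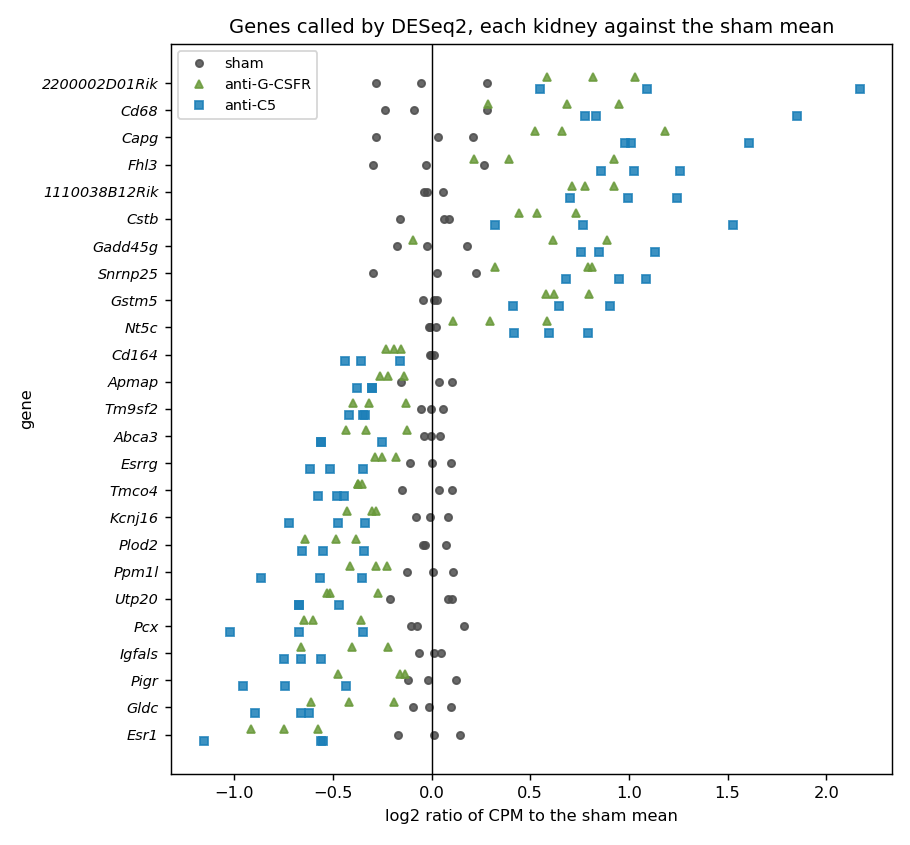
The 25 genes called by DESeq2, each point one kidney's log2 ratio of CPM to the sham mean for sham (circles), anti-G-CSFR (triangles) and anti-C5 (squares) kidneys. In all 25 the anti-C5 squares lie on one side of the sham circles, and 21 of the 25 fitted differences are under 2-fold. The anti-G-CSFR mean lies on the same side of sham in all 25, but the genes were selected on their distance from these same sham kidneys.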

How the data were processed

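RNA of whole perfused kidneys was sequenced as strand-specific 100 bp single-end libraries, per the labels' protocols. The deposited values are the authors' raw read counts per gene for 12 kidneys. TopHat2 2.1.0, Bowtie2 2.2.5, featureCounts and GRCm38.p4 are named in the submitters' processing notes. All libraries carry the same lane number in the labels. The 13124 genes each had over 2 CPM in at least 3 libraries, as a filter before deposit would leave; 50 genes without a symbol (0.0811% of counts) stayed in the fit. Gene positions are from GENCODE vM21.

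Counts were fitted with edgeR 4.0.16 (TMM factors, robust quasi-likelihood, all 12 kidneys in 4 groups, R 4.3.3), contrast anti-C5 minus sham, with Benjamini-Hochberg adjustment over 13124 genes and calls under 0.05. Log2 differences are from this fit. Where kidneys are compared singly, CPM were log2 transformed with a prior count of 2. Alternatives were other scalings, filters, DESeq2 1.42.0, limma 3.58.1 and left-out kidneys; DESeq2 with left-out kidneys was added after seeing the data. The code was tested on simulated data. The named genes were a fixed set, the 2 members of each list with the smallest p, and the 10 genes of widest spread above the stated floor. Any further gene was chosen with its values in view. The comparison, 37 gene lists and rules were chosen with earlier results of these data known.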

Additional observations from a re-analysis of the deposited data

How the results depend on the processing

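No gene was called by edgeR under any scaling, filter or left-out kidney, nor by limma-voom with or without sample weights; DESeq2 called 10 higher and 15 lower. Leaving out single kidneys, DESeq2 called 1 to 547 genes: 3 without kidney 1, 1 without kidney 2, 19 without kidney 3, 547 without kidney 10, 10 without kidney 11 and 46 without kidney 12, of which 2, 1, 9, 25, 6 and 16 were among the 25. The cause was not tested. Against a 1.5-fold change, unadjusted p under 0.05 was reached by 114 higher and 19 lower genes. Without kidney 1 these were 438 and 228 (no fold limit), and without kidney 10 there were 837 lower genes. Genes over 2-fold higher numbered 126 by limma-voom, 48 with sample weights, 24 without kidney 11, 26 without kidneys 9 and 11, 325 without kidney 10 and 307 without kidney 12; those over 2-fold lower numbered 41 without kidney 3, 41 without kidney 11 and 48 without kidney 12. With single kidneys left out, log2 differences ranged from 0.00 (-0.0024) to 2.18 for Spp1, -0.31 to 0.12 for Aqp1, -0.24 to 2.56 for Csf3r, -0.25 to 0.13 for C3ar1 and -0.0127 to 0.32 for Cd59a, each crossing 0. Without kidneys 9 and 11, Aqp1 was at 0.13 and Csf3r at -0.24. No list median changed sign under another scaling or filter; 8 of 35 did without kidney 11. No paired analysis was possible because no kidney number occurs in more than one group. With 3 kidneys a group and 8 residual degrees of freedom, precision is limited as the intervals show.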
